A study of Mus musculus with 9 samples.

Results

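The genes described here encode the protein components of the cytoplasmic ribosome, measured by RNA sequencing in livers of 5-week-old mice that lack heterochromatin protein 1 (HP1) family members. They were taken as the rows of the deposited table whose symbol is Rpl or Rps followed by a number, or Rplp0, Rplp1 or Rplp2, with at most 1 letter and 1 digit after it and no hyphen. That gave 85 rows of 22701, of which 50 carry a large-subunit name and 35 a small-subunit name. By gene identifier and name, 75 of the 85 are core ribosomal protein genes. A list of names set 6 apart as divergent paralogs: Rpl3l, Rpl7l1, Rpl22l1, Rpl39l, Rps27l and Rps4l. Rps4l, whose row is labelled Rps4y2, is itself annotated as a transcribed processed pseudogene. Another 3 rows are processed pseudogenes (Rps3a2, Rps3a3 and Rps12l2). The remaining row is labelled Rpl24 but carries the identifier of Zbtb11, a neighbouring zinc finger gene on chromosome 16 (ENSMUSG00000022601), while the identifier of Rpl24 itself (ENSMUSG00000098274) stands in a row spelled RPL24. Of the 85 rows, 82 averaged 10 or more across all 9 libraries and were tested. The other 3 were Rpl3l, Rpl39l and Rps12l2.

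Each ribosome is assembled from a small subunit, which reads the messenger RNA, and a large subunit, which forms the peptide bond and sends the new chain out through a tunnel. The subunits are built in the nucleolus on ribosomal RNA, and nearly all of their proteins are needed in equal numbers, so their genes are known for being transcribed and translated together. Many of these messenger RNAs start with a C followed by a run of pyrimidines, the 5′ terminal oligopyrimidine tract, through which mTOR signalling controls their translation. In liver, whose main cell, the hepatocyte, makes most plasma proteins, they belong to the abundant transcripts. Mammalian genomes also hold many processed pseudogenes of ribosomal protein genes, which are intron-free copies made from messenger RNA.

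The 9 livers came from 9 numbered mice of a C57BL/6 and 129svPas background, all 5 weeks old, and formed 4 groups. WT mice (n = 3) carried no HP1 deletion. HP1a_KO mice (n = 2) were HP1a-/-, lacking HP1α. HP1ab_KO (n = 1) was HP1a-/- with HP1bliver-/-, and HP1ag_KO mice (n = 3) were HP1a-/- with HP1gliver-/-, so that all 6 mutant livers lacked HP1α and the second deletion was in liver. What drove the liver deletion is not given in the sources used here. The animals are numbered here in the order of the samples, and p-values measure the spread between these animals. The single HP1ab_KO library has no replicate check.

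Whole tissue was sequenced after depletion of ribosomal RNA, and in bulk liver fewer cells of a type and less RNA per cell cannot be told apart. Libraries held 16266423 to 36161177 reads, the fewest in HP1a_KO animal 1, and mitochondrially encoded genes took 3.83 to 5.51% of them. All values below are reads divided by the size factor of the library. Hepatocyte markers, of which 7 of 8 were in the table, had the largest sums of the marker lists examined, 2548071 to 3445993 per library, and none was at 0. The targeted gene Cbx5 (HP1α) had values of 997 to 1542 in WT and 501 to 813 in the 6 mutants. Cbx1 (HP1β) was at 217 in HP1ab_KO against 457 to 1082 elsewhere, and Cbx3 (HP1γ) at 326 to 380 in HP1ag_KO against 536 to 641 elsewhere. The library of WT animal 1 stood apart in the ribosomal protein genes, so counts of genes higher and lower against WT are given with and without it.

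All 75 core genes passed the minimum. Their WT mean values ran from 857 (Rps27) to 11555 (Rpl4), with a median of 4131. Per kb of exon, counted over all annotated exons of a gene, WT means ran from 432 (Rps15a) to 14568 (Rplp1), with a median of 2016. Genes of both subunits were spread along the whole order. Rplp1, an acidic protein of the stalk that recruits elongation factors, had the highest level per kb, 14568 ± 1029 (SD, n = 3). It was followed by Rps3a1, a small-subunit protein, at 6820 ± 2019 per kb. The next levels per kb were Rpl19 at 6046 ± 381, Rpl4, which lines the exit tunnel, at 5757 ± 563, and Rps15, which sits near the decoding site, at 5630 ± 435. Rpl19 and Rpl4 differed by less than either SD, and so did Rpl4 and Rps15. At the low end, Rps15a had 432 ± 73.8 per kb, Rpl34 had 624 ± 64.9 and Rps19 had 763 ± 114. Rpl22 followed with 768 ± 16.6 per kb and Rps13 with 816 ± 193. Rps19 and Rpl22 differed by less than their SDs. These levels count only the reads of the gene's own row. Near-identical rows, taken up below, held 26.2 to 26.8% of the reads of Rpl34 and its copies in WT. For Rps13 such rows held 14.6% in WT animal 1. Per kb of the longest transcript instead, the core genes kept a similar order (Spearman's rho 0.91 across genes, which are not independent replicates), with Rplp1 highest and Rps15a (523) lowest on both lengths. Both lengths of Rps15a are long, 6270 bases of exon (core median 1781) and 5179 for the longest transcript. Its WT mean value was 2709, so its last place depends on the annotated length, and the second length is no separate check. Ranks between these ends depended on the length used. On the longest transcript, Rpl10 (10619), Rpl41 (8938), Rpl13a (8309) and Rpl19 (8228) followed Rplp1, above Rps3a1 at 6820, and Rpl34 stood at 1338.

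**Figure D1:**
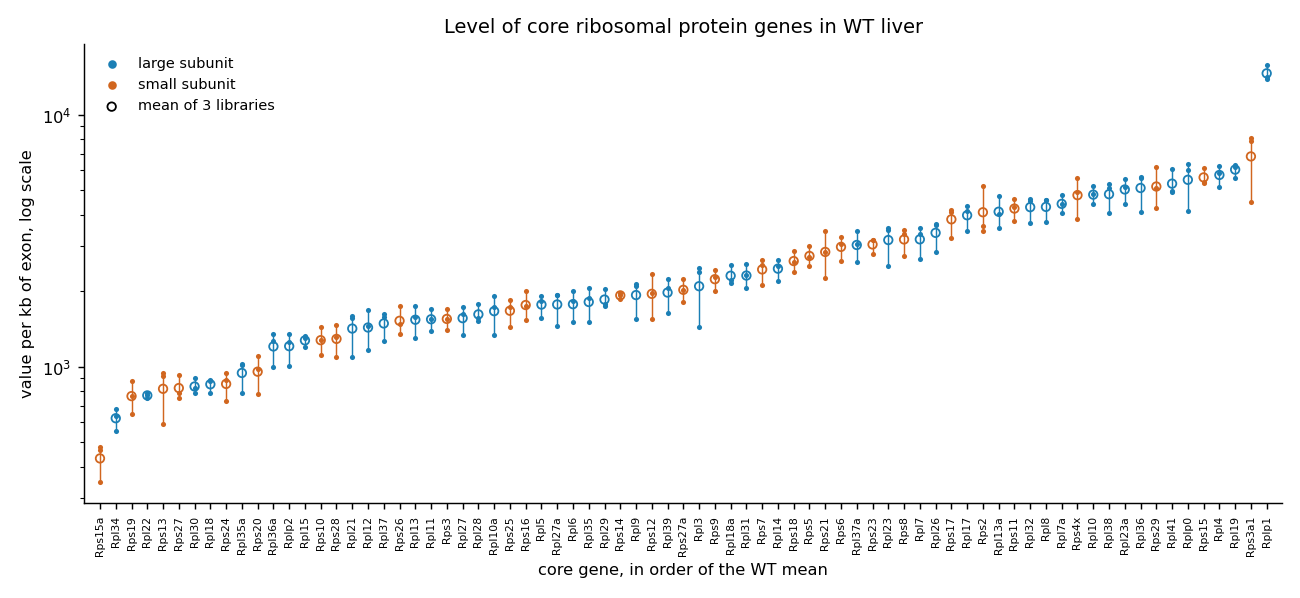
Value per kb of exon (log axis) of the 75 core ribosomal protein genes in the 3 WT libraries, ordered by the WT mean. Small points are libraries, open circles are means and colours mark the subunit. Levels span 432 (Rps15a) to 14568 (Rplp1), and the 2 subunits are mixed along the order.

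Within WT, core genes varied by an SD of 0.03 to 0.48 on the log2(value + 1) scale, with a median of 0.19. The 3 narrowest were Rpl22 (0.03), Rps14 (0.04) and Rpl15 (0.08), and the 3 widest were Rps3a1 (0.48), Rpl3 (0.43), a protein at the peptidyl transferase centre, and Rps13 (0.37). In WT animal 1, near-identical rows, taken up below, held 29.7, 13.7 and 14.6% of the reads of these 3 genes and their copies. With the copies summed, their SD over all 9 libraries was 0.12, 0.23 and 0.15, against 0.55, 0.29 and 0.22 for the genes alone. Over all 9 libraries, 63 of the 75 core genes had their lowest value in WT animal 1 and 7 in HP1ag_KO animal 2. The highest value fell in HP1a_KO animal 1 for 32 core genes, in WT animal 2 for 14 and in HP1ag_KO animal 1 for 13. Members together took 1.05, 1.34 and 1.23% of the reads in the 3 WT libraries, 1.34 and 1.27% in HP1a_KO, 1.27% in HP1ab_KO, and 1.45, 1.14 and 1.31% in HP1ag_KO. The 4 groups overlapped in this share, with WT at 1.20 ± 0.15% (SD, n = 3) and HP1ag_KO at 1.30 ± 0.16% (SD, n = 3).

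Core genes moved together from library to library. After each gene's mean over the 9 libraries was taken off, the median core gene stood on the log2 scale at -0.25, 0.09 and -0.01 in the WT libraries and at 0.13 and 0.06 in HP1a_KO. It stood at 0.02 in HP1ab_KO and at 0.09, -0.10 and -0.003 in HP1ag_KO. WT animal 1 and HP1ag_KO animal 2 were thus the low libraries, and 1 of them is a control. They also had the highest shares of mitochondrially encoded reads, 5.51 and 5.27% against 3.83 to 4.99% in the other 7, whose part in the pattern was not tested. In WT animal 1, 73 of the 75 core genes were below their own mean, and in HP1ag_KO animal 2 it was 72. Large and small subunit genes gave nearly the same medians in WT animal 1, at -0.25 each. The mean correlation between 2 core genes over the 9 libraries was 0.68, against 0.0009 between 2 genes of all tested, where the points share the libraries and their size factors. The scaling keeps the median of all tested genes near 0 in each library (-0.008 to 0.01), which holds the second value low. Of the core genes, 53 had a correlation above 0.8 with the median of the other core genes. Rpl22 (0.03) and Rps2 (0.27) followed the others least. These correlations include WT animal 1 and are not given without it.

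The row spelled RPL24, which the symbol rule did not take, had values of 1137, 1291 and 1270 in WT, 1426 and 1436 in HP1a_KO, 1364 in HP1ab_KO, and 1427, 1220 and 1305 in HP1ag_KO. Its lowest library was again WT animal 1. Mitochondrial ribosomal protein genes, which serve the separate ribosome of the mitochondrion, did not share the low library: their median stood at 0.04, 0.02 and 0.06 in the WT libraries. Translation factors stood at 0.03, 0.03 and 0.02 there. In HP1ag_KO animal 2, the other low library, mitochondrial ribosomal protein genes stood at 0.01. Translation factors were at -0.14 in that library, their lowest, so they did not stay level in both low libraries.

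**Figure D2:**
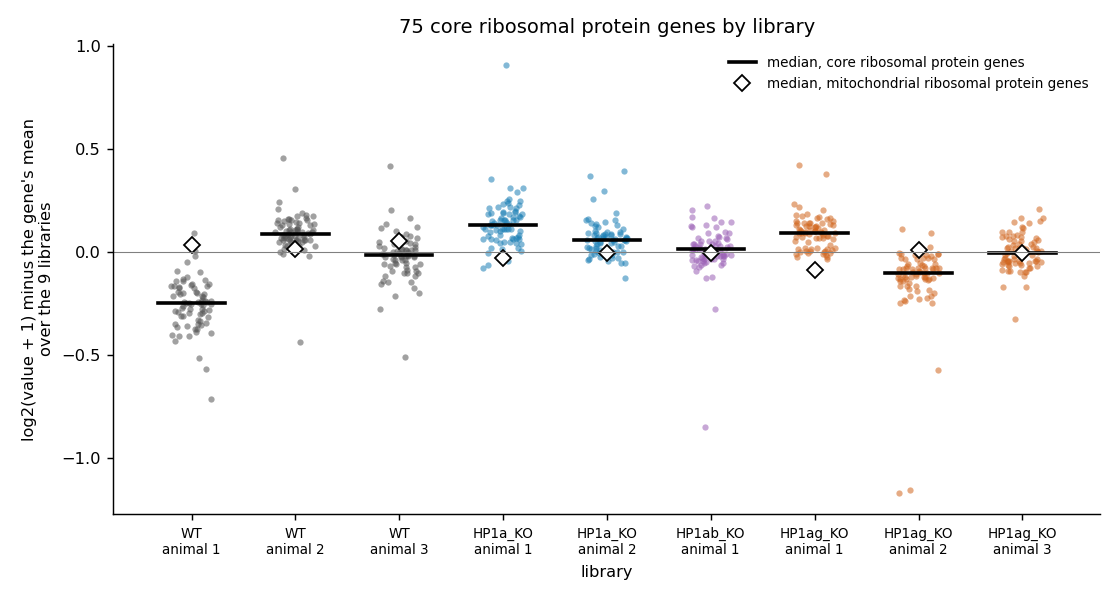
Each point is 1 of 75 core ribosomal protein genes in 1 library, as log2(value + 1) minus the gene's mean over the 9 libraries; black lines are the medians of the core genes and open diamonds those of the mitochondrial ribosomal protein genes. The core median is lowest in WT animal 1 (-0.25), where the diamond stands at 0.04.

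Some marker lists moved with the same libraries. The summed values of the 6 proliferation markers (6 of 6 in the table, none at 0) were 807, 3171 and 1437 in WT, 1130 and 2029 in HP1a_KO, 1638 in HP1ab_KO, and 1706, 877 and 2632 in HP1ag_KO. They were lowest in WT animal 1 and HP1ag_KO animal 2. Sums of the B and T lymphocyte markers (10 of 10 in the table, none at 0) ran from 635 to 767 in WT, from 718 to 763 in HP1a_KO and from 590 to 875 in HP1ag_KO, with 760 in HP1ab_KO. Their lowest libraries were the same 2, at 635 and 590. Erythroid marker sums (9 of 11 in the table, none at 0) ran from 8291 to 19286 in WT, from 12537 to 14455 in HP1a_KO and from 6244 to 10304 in HP1ag_KO, with 20978 in HP1ab_KO. Kupffer cell sums were lowest in the same 2 libraries, at 13944 and 15216. WT animal 1 also had the lowest sums of hepatocyte (2548071), stellate (12182) and cholangiocyte markers (873, 6 of 6 in the table and none at 0). After each gene's mean was taken off, the median hepatocyte marker stood at -0.02 there and lowest in HP1ag_KO animal 1, at -0.19. Sinusoidal endothelial sums (7 of 7, none at 0) were lowest in HP1a_KO animal 2 (13178), with 13599 in WT animal 1. Neutrophil sums were 60.5 in WT animal 1, 51.5 in WT animal 3 and 33.6 in HP1ag_KO animal 2. The part of these markers in the ribosomal protein values was not tested.

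The annotated starts of core genes were searched for the pyrimidine tract, because the genes moved together. In the RefSeq promoters (build GRCm38.p6), 56 of 76 core genes, RPL24 included, were found with 66 annotated starts. A C followed by at least 4 letters that are each C or T, read on the transcribed strand and exactly at the start, stood at 13 of the 66 starts (19.7%) and at 2.51% of all 32851 annotated starts. Within 10 bases of the start, it was found at 36 of the 66 starts (54.5%) against 30.7% of all. None of 7 starts of paralogs and none of 75 starts of mitochondrial ribosomal protein genes had the tract exactly at the start. Within 10 bases, however, it was found at 4 of the 7 paralog starts (57.1%) and 31 of the 75 mitochondrial ones (41.3%). The wider window thus did not set the core genes apart from the paralogs. The windows shown, 30 bases before to 15 after the start with the tract in capitals, are those of genes described here: Rps6, the substrate of the S6 kinases downstream of mTOR, Rpl28, the member with the smallest p in HP1a_KO against WT, Rplp2 of the stalk, Rps15a, the lowest per kb, and Rpl15, with the longest tract. A match is a description of these letters and does not show where transcription starts in liver.
Rps6, chr4:86857353-86857397, minus strand: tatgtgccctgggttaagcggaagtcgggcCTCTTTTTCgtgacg
Rpl28, chr7:4792935-4792979, plus strand: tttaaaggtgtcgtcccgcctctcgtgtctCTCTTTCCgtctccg
Rplp2, chr7:141447621-141447665, plus strand: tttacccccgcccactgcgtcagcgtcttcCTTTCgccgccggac
Rps15a, chr7:118116133-118116177, minus strand: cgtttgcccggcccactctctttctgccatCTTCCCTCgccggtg
Rpl15, chr14:18270972-18271016, minus strand: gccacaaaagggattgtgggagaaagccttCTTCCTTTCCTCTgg
The tracts in these 5 windows measured 9, 8, 5, 8 and 13 bases.

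The stalk genes, Rpl5, Rpl11 and Rps6 all had their lowest value in WT animal 1. Rplp0, the base of the stalk, had values of 6865, 10560 and 9990 in WT, 11196 and 10680 in HP1a_KO, 10003 in HP1ab_KO, and 10519, 9353 and 9776 in HP1ag_KO. Its lowest library was WT animal 1, and the other 8 lay between 9353 and 11196. Rplp1 ran from 6899 to 8194 over the 9 libraries. Rplp2 had 2082, 2803 and 2604 in WT, 2497 and 2496 in HP1a_KO, 2444 in HP1ab_KO, and 2664, 2131 and 2618 in HP1ag_KO, so that WT animal 1 and HP1ag_KO animal 2 were low. Rpl5 and Rpl11 bind the smallest ribosomal RNA and, when free, inhibit Mdm2, the ligase that degrades p53. Rpl5 ran from 6097 (WT animal 1) to 7768 (HP1a_KO animal 1) and Rpl11 from 3745 to 4631 in the same 2 libraries. Rps6 had 4153, 5185 and 4862 in WT, 5746 and 4908 in HP1a_KO, 5041 in HP1ab_KO, and 5306, 4498 and 4882 in HP1ag_KO. Its groups overlapped in each comparison.

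HP1ag_KO against WT addresses the joint loss of HP1α and HP1γ. No member passed the test: 61 of the 82 tested members were higher and 21 lower, with a median of 0.05 on the log2 scale, against 47.9% of 13845 tested genes higher and a median of -0.01. By limma's test, 0% of all genes and 0 of the 82 members were called, the threshold being 0.05 on the p adjusted by Benjamini and Hochberg's method. DESeq2 called 0.715% of genes and 0 members, and edgeR 0% and 0. At an unadjusted p under 0.05, 3.84% of genes were higher and 3.74% lower by limma, and of the members 0 were higher and 1 lower, Rps4l. The libraries of the groups did not overlap for 0 members higher and 1 lower (again Rps4l), against 6.46 and 7.05% of all genes. Without WT animal 1, 16 members were higher and 66 lower, and their median was -0.04. Without WT animal 2 they were 72 and 10, with 9 higher without overlap (11.1% of all genes). Without HP1ag_KO animal 1 they were 41 and 41.

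HP1a_KO against WT compares loss of HP1α alone with no deletion, with the same 3 controls. Here 76 of the 82 members were higher and 6 lower, with a median of 0.14, against 49.7% of all tested genes higher and a median of -0.002. Among the core genes 73 of 75 were higher, with a median of 0.13 for the large and 0.18 for the small subunit. By limma 0% of genes and 0 members were called, by DESeq2 0.628% of genes and 0 members, and by edgeR 0% and 0. At an unadjusted p under 0.05, 4 members were higher by limma (5.48% of all genes) and 0 lower (4.66%). The libraries did not overlap for 23 members higher (14.7% of all genes) and 3 lower (15.1%). Without WT animal 1, 57 members were higher and 25 lower, and the median was 0.06. In that setting 24 members were higher without overlap, against 24.3% of all genes, and 14 lower, against 23.7%. Without WT animal 2 the members higher without overlap were 57 (20.0% of all genes), and without HP1a_KO animal 2 they were 48 (27.5%).

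The members with the smallest p among those without overlap were Rpl28, Rps16, Rpl29, Rps28 and Rpl7a. Rpl28, a large-subunit protein, had values of 2866, 3246 and 2781 in WT, 3530 and 3576 in HP1a_KO, 3221 in HP1ab_KO, and 3121, 3074 and 2897 in HP1ag_KO. Both HP1a_KO libraries were above all the others. The difference from WT was 0.26 ± 0.10 (SE) on the log2 scale, with limma's adjusted p = 0.457. Rps16, which reaches toward the decoding site, had 2198, 2529 and 1937 in WT, 2758 and 3037 in HP1a_KO, 2330 in HP1ab_KO, and 2357, 2323 and 1876 in HP1ag_KO. Again the 2 highest libraries were the HP1a_KO ones, and the difference was 0.39 ± 0.15 (SE; limma's adjusted p = 0.457).

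Rpl29, a large-subunit protein, had 1959, 2287 and 1986 in WT against 2466 and 2444 in HP1a_KO, a difference of 0.24 ± 0.10 (SE; limma's adjusted p = 0.471). Rps28, which lies at the exit of the messenger RNA channel, had 1876, 2507 and 2258 in WT against 3040 and 2561 in HP1a_KO, a difference of 0.34 ± 0.14 (SE; limma's adjusted p = 0.480). Rpl7a, a large-subunit protein, had 7250, 8524 and 7853 in WT against 9930 and 8843 in HP1a_KO, a difference of 0.25 ± 0.12 (SE; limma's adjusted p = 0.502). In each of these 3 genes the lowest of the 5 libraries was WT animal 1. The opposite order was found for Rpl22, whose WT values were 2189, 2236 and 2286 and whose HP1a_KO values were 2121 and 2035, a difference of -0.11 ± 0.09 (SE; limma's adjusted p = 0.688). Rps4l and the pseudogene Rps3a3 were the other 2 members lower without overlap.

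Some other measures also separated the HP1a_KO libraries from WT. Of all tested genes, 14.7% were higher and 15.1% lower without overlap in this comparison. Sums of the hepatocyte, sinusoidal endothelial, cholangiocyte, lymphocyte, erythroid and proliferation markers overlapped between these groups. Kupffer cell marker sums (11 of 12 in the table, none at 0) were 13944 to 16571 in WT and 20685 to 24215 in HP1a_KO, with 23721 in HP1ab_KO and 15216 to 22146 in HP1ag_KO. Stellate cell marker sums (10 of 10, none at 0) were 12182 to 17984 in WT and 19391 to 20881 in HP1a_KO, with 19386 in HP1ab_KO and 16275 to 18171 in HP1ag_KO. Neutrophil marker sums (8 of 8) were 51.5 to 66.7 in WT, with Camp at 0 in all 3 libraries, and 332 to 505 in HP1a_KO. They were 176 in HP1ab_KO, with Mpo and Elane at 0, and 33.6 to 221 in HP1ag_KO. Mitochondrially encoded genes took 4.57 to 5.51% of reads in WT and 3.83 to 4.20% in HP1a_KO. The part of these measures in the ribosomal protein values was not tested.

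HP1ab_KO against WT rests on 1 mutant library, assumed in the fit to vary like the other groups, and shares the WT controls. Of the 82 members 65 were higher and 17 lower, with a median of 0.08, against 49.4% of all genes higher. limma called 0% of genes and 0 members, DESeq2 0.0795% and 0, and edgeR 0% and 0. At an unadjusted p under 0.05, 0 members were higher (2.05% of all genes) and 0 lower (1.65%). The library lay above all WT libraries for 16 members (22.6% of all genes) and below them for 4 (24.8%). Among those above were Rps14 (5491 against 4449 to 4706 in WT), Rpl41 (7341 against 5768 to 7083), the smallest ribosomal protein, Rps3 (8027 against 6266 to 7613) and Rpl31 (4440 against 3397 to 4230), and the pseudogene Rps3a2, whose reads are taken up with Rps3a1. The 4 below were Rpl34, Rps4l, Rpl7l1 and the row of Zbtb11. Without WT animal 1, 34 members were higher and 48 lower, and the median was -0.02, and without WT animal 2 the number above all WT libraries was 49 (30.7% of all genes).

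HP1ag_KO against HP1a_KO compares mutants that both lack HP1α and that differ in HP1γ. Of the 82 members 14 were higher and 68 lower in HP1ag_KO, with a median of -0.11, against 48.0% of all genes higher and a median of -0.02. limma called 0% of genes and 0 members, and edgeR 0% and 0. DESeq2 called 3.30% of genes and 1 member, the pseudogene Rps3a3, treated with Rps3a1. At an unadjusted p under 0.05 by limma, 0 members were higher (7.80% of all genes) and 2 lower (8.38%), Rps16 and Rpl28. Libraries did not overlap for 2 members higher (17.5% of all genes), Rpl22 and Rpl23, and for 26 lower (19.2%). Without HP1a_KO animal 2 the number lower without overlap was 50 (31.3% of all genes), and without HP1ag_KO animal 1 it was 52 (27.5%). With every library scaled to the same total, the median was -0.01 and that of all tested genes 0.08. Because HP1a_KO enters both this comparison and the one with WT, its high values in Rpl28 and Rps16 count in both. Rps16 differed by -0.41 ± 0.15 (SE; limma's adjusted p = 0.232) and Rpl28 by -0.23 ± 0.10 (SE; limma's adjusted p = 0.303). Rpl18 had 4079 and 3690 in HP1a_KO against 3495, 3258 and 3294 in HP1ag_KO, a difference of -0.21 ± 0.10 (SE; limma's adjusted p = 0.332). Rpl41 had 8231 and 7076 against 6613, 5650 and 6486, a difference of -0.29 ± 0.13 (SE; limma's adjusted p = 0.333). In both genes every HP1ag_KO library lay below both HP1a_KO libraries.

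**Figure D3:**
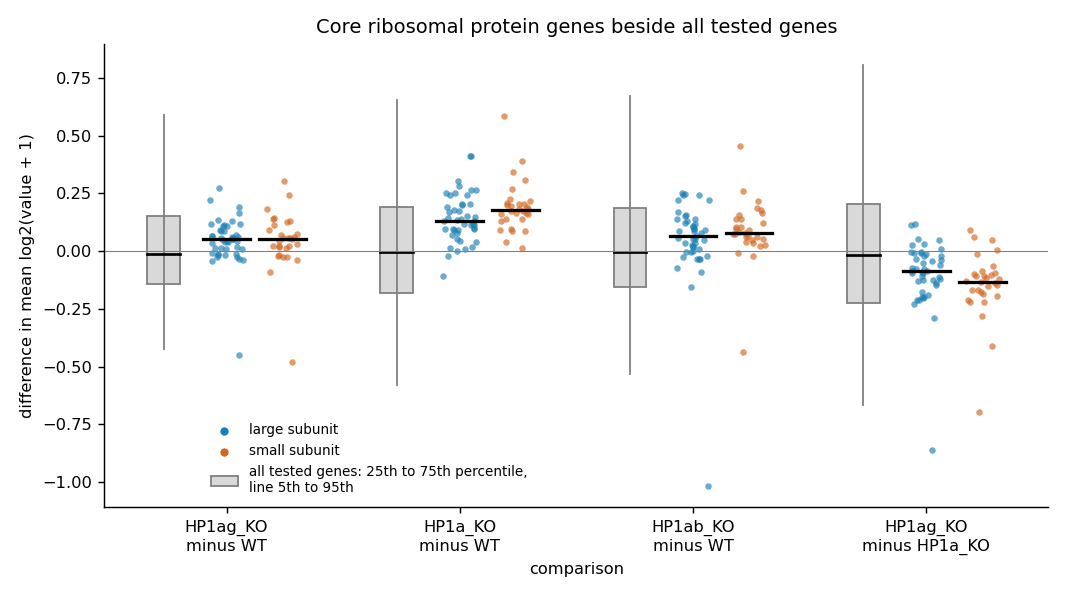
Differences in mean log2(value + 1) for core genes of the large (blue) and small (orange) subunit in the 4 comparisons, with medians as black lines; grey boxes and lines give the percentiles of all 13845 tested genes. Core medians are above 0 in the 3 comparisons with WT, which share their controls, and below 0 for HP1ag_KO against HP1a_KO.

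Members were also counted by role, to be read beside all 75 core genes. Of these, 73 were higher in HP1a_KO against WT (median 0.16) and 57 in HP1ag_KO against WT (median 0.05). Of the 30 core genes of the small subunit, 30 and 23 were higher in these comparisons (medians 0.18 and 0.05). All 9 listed genes that are mutated in Diamond-Blackfan anaemia, a failure of red cell formation, were tested: 8 were higher and 1 lower in HP1a_KO against WT (median 0.15), and 6 higher and 3 lower in HP1ag_KO against WT (median 0.02). Of 10 proteins around the exit tunnel, 9 were higher and 1, Rpl22, lower in HP1a_KO against WT (median 0.12), while in HP1ag_KO against WT 5 were higher and 5 lower. Without WT animal 1, the median of all tested members was 0.06 in HP1a_KO and -0.04 in HP1ag_KO against WT, where most members were lower. The Diamond-Blackfan genes then had 7 higher and 2 lower in HP1a_KO and 0 higher and 9 lower in HP1ag_KO. The tunnel proteins then had 6 higher and 4 lower in HP1a_KO and 0 higher and 10 lower in HP1ag_KO. All 6 proteins at messenger RNA entry, exit and decoding, which belong to the small subunit, were higher in HP1a_KO against WT (median 0.18). All 6 were also higher in HP1ag_KO against WT (median 0.07). With that library left out these were 6 of 6 (median 0.14) and 3 of 6 (median 0.03). None of these genes was called by limma.

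For a small number of core genes, reads were divided between the gene and a near-identical row in proportions that changed from animal to animal. Near copies of a core gene were taken as other genes whose transcripts share at least 100 of its 50-base stretches in the GENCODE annotation of GRCm38. Of the 75 core genes 67 had such a copy, up to 41 for Rpl21, and 251 rows of the table were copies. For 66 core genes the copies together never held over 5% of the reads of gene and copies in any library. For 9 they did: Rps3a1, Rps2, Rpl34, Rplp0, Rpl3, Rps13, Rpl15, Rpl21 and Rps27. In the last 2 the share was steady, at 26.4 to 34.1% for Rpl21 and 71.3 to 76.4% for Rps27. The copy share of Rpl21 stood mostly in BC004004, a separate protein-coding gene with 1660 to 2478 per library.

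Rps3a1 (chr3:86137940-86142702, minus strand), a small-subunit protein, had the widest spread of any core gene in WT. Its values were 4388, 7906 and 7695 in WT, 7379 and 7579 in HP1a_KO, 4752 in HP1ab_KO, and 7488, 2563 and 5128 in HP1ag_KO. Its pseudogene Rps3a2 (chr14:88123017-88123808, minus strand) had 780, 11.4 and 8.43 in WT, 14.7 and 12.0 in HP1a_KO, 849 in HP1ab_KO, and 13.7, 1639 and 828 in HP1ag_KO. The pseudogene Rps3a3 (chr13:108670603-108671397, plus strand) had 1066, 3.81 and 4.68 in WT, 1.83 and 1.72 in HP1a_KO, 1201 in HP1ab_KO, and 1.82, 2354 and 1278 in HP1ag_KO. The 9 animals thus fell on 3 levels. The copies held at most 0.347% of the reads in 5 animals, 29.2 to 30.2% in 3 and 61.0% in HP1ag_KO animal 2. These levels crossed the groups, since WT and HP1ag_KO each held animals at the lowest level and animals above it. Summed over gene and copies, the 9 libraries ran only from 6239 to 7929, with an SD of 0.12 on the log2 scale against 0.55 for Rps3a1 alone.

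Over its coding sequence Rps3a1 differs from Rps3a2 at 4 of 792 bases (99.5% identity) and from Rps3a3 at 8 of 791 aligned bases (99.0%). The windows of 60 bases with the most differences show how little separates them, with the differing bases in capitals. Positions count from the A of the start codon of the parent gene.
Rps3a1, bases 609 to 668: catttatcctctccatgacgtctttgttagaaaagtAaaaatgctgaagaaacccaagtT
Rps3a2: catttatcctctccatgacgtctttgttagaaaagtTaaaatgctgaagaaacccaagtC
Rps3a1, bases 201 to 260: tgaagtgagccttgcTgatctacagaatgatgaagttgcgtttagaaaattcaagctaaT
Rps3a3: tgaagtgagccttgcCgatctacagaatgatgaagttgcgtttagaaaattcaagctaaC
The substitutions in these windows are A645T and T668C for Rps3a2, and T216C and T260C for Rps3a3.

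Rps2 (chr17:24718116-24721929, plus strand), which lines the entry of the messenger RNA channel, was divided in another set of animals. It had values of 9564, 6618 and 6301 in WT, 11095 and 11009 in HP1a_KO, 10088 in HP1ab_KO, and 12008, 6028 and 10365 in HP1ag_KO. The pseudogene Rps2-ps13 (chrX:52898588-52899469, plus strand) had 0.889, 2066 and 2000 in WT, 0 and 2.58 in HP1a_KO, 0.799 in HP1ab_KO, and 0, 1825 and 3.79 in HP1ag_KO. The 3 animals with 1825 or more on the pseudogene were those with the lowest Rps2, and the other 6 had at most 3.79 there. In the sums of Rps2 and all its copies WT held 9627, 8779 and 8389, and both HP1a_KO libraries, at 11179 and 11070, stayed above them. The difference between HP1a_KO and WT was 0.59 ± 0.29 (SE) for Rps2 alone and 0.32 ± 0.17 (SE) for the sum, with limma's adjusted p = 0.525 and 0.542. The coding sequences differ at 7 of 879 bases (99.2% identity), 2 of them, T60A and A84G, in the window with the most differences.
Rps2, bases 25 to 84: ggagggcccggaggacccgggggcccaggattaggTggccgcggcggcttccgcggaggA
Rps2-ps13: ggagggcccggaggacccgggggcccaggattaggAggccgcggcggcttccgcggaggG

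Rpl34 (chr3:130726831-130730398, minus strand), a large-subunit protein, had the widest range of all core genes over the 9 libraries, 4.18-fold. Its values were 1463, 1802 and 1681 in WT, 2734 and 1744 in HP1a_KO, 810 in HP1ab_KO, and 1651, 654 and 1607 in HP1ag_KO. Rpl34-ps1 (chr6:71124610-71124963, plus strand) had 536, 642 and 596 in WT, 1.83 and 623 in HP1a_KO, 1331 in HP1ab_KO, and 574, 1106 and 590 in HP1ag_KO. The share on the copies was 0.067% in HP1a_KO animal 1, 62.2% in HP1ab_KO, 62.9% in HP1ag_KO animal 2 and 25.8 to 26.8% in the other 6 animals, again 3 levels. Rpl34 was the core gene with the lowest difference in HP1ab_KO against WT, -1.02 ± 0.49 (SE; limma's adjusted p = 0.999), and for the sum with its copies the difference was -0.06 ± 0.18 (SE). In HP1ag_KO against HP1a_KO the difference was -0.86 ± 0.39 (SE; limma's adjusted p = 0.324) for Rpl34 and -0.31 ± 0.14 (SE; 0.327) for the sum. Rpl34 and Rpl34-ps1 differ at 2 of 351 coding bases (99.4% identity), and 1 of these, T132C, falls in the window shown.
Rpl34, bases 73 to 132: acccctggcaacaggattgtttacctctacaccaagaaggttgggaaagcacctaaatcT
Rpl34-ps1: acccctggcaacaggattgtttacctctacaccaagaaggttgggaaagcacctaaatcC

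**Figure D4:**
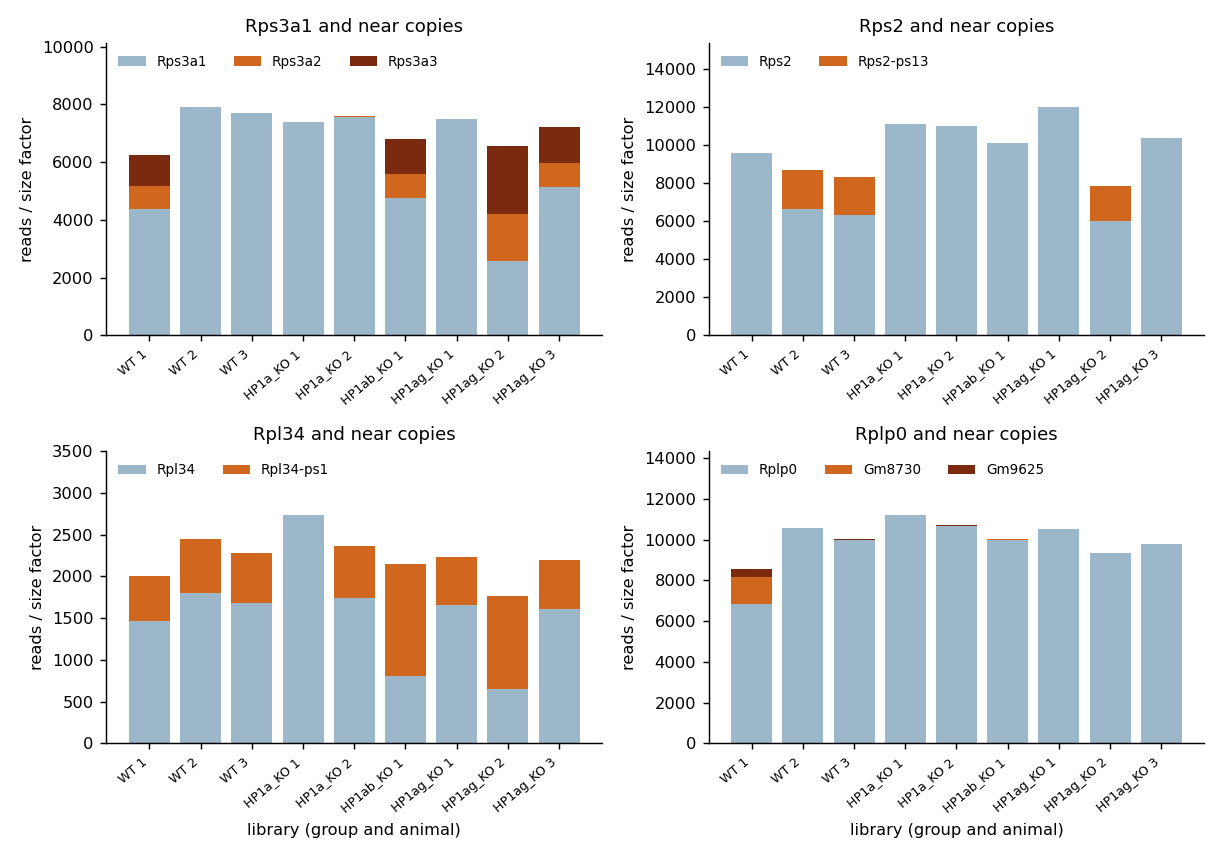
Stacked values (reads divided by the size factor) of Rps3a1, Rps2, Rpl34 and Rplp0 with their varying near copies in each of the 9 libraries. The part on the copies changes between animals of the same group, while the stacks differ less than the parent genes do.

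Other core genes had such a row in single animals. Gm8730 and Gm9625, copies of Rplp0, had 1310 and 388 in WT animal 1 and at most 7.49 and 24.6 elsewhere. Rpl3-ps1 had 720 and 580 in WT animals 1 and 2 and 30.4 to 62.4 elsewhere, and Rps13-ps1 had 271 in WT animal 1 and at most 2.40 elsewhere. Rpl15-ps2 had 163 in HP1ag_KO animal 2 and at most 3.67 elsewhere. In all, 11 copies of 9 core genes, Rps7 and Rplp1 among these, reached a value of 100 and varied at least 10-fold, limits set after the values were seen. WT animal 1 stayed the lowest library when gene and copies were summed for Rplp0 (8565 against 9363 to 11218) and for Rpl3 (5272 against 6967 to 8964). Rps27, the lowest core gene by value, had 782 to 1029, and Rps27rt (row Gm9846), whose 252 coding bases are identical to it, had 2101 to 2763. Reads of that pair cannot be told apart over the coding sequence. The genotypes of the animals at these rows, the read length and the treatment of reads with several matches were not analysed here, and the cause of the division was not tested.

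The DESeq2 call of Rps3a3 in HP1ag_KO against HP1a_KO (adjusted p = 0.0159) rests on 2 of 3 HP1ag_KO libraries. The values were 1.82, 2354 and 1278 against 1.83 and 1.72 in HP1a_KO, so that HP1ag_KO animal 1 was level with HP1a_KO. By limma the difference was 6.20 ± 3.16 (SE) with an adjusted p of 0.376, and by edgeR the adjusted p was 0.311.

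Of the paralogs, Rps4l was the one whose mutant and WT libraries were separate. Rps4l (row Rps4y2, ENSMUSG00000063171, chr6:148354656-148355598, plus strand) is an intron-free relative of Rps4x, annotated as a transcribed processed pseudogene. Its values were 274, 279 and 248 in WT, 239 and 134 in HP1a_KO, 163 in HP1ab_KO, and 116, 225 and 69.1 in HP1ag_KO. All 6 livers without HP1α lay below all 3 WT livers, with HP1a_KO animal 1 closest to them, and WT animal 1 was not low here. The share of all tested genes with this order is not given here. By single comparison, the shares lower than WT without overlap were 7.05% in HP1ag_KO, 15.1% in HP1a_KO and 24.8% in HP1ab_KO. The difference from WT was -1.12 ± 0.40 (SE) in HP1ag_KO, -0.57 ± 0.45 (SE) in HP1a_KO and -0.71 ± 0.56 (SE) in HP1ab_KO. limma's adjusted p was 0.595, 0.665 and 0.999, so that none passed the threshold. Single libraries moved these differences: without HP1a_KO animal 1 or 2 the one for HP1a_KO was -0.99 or -0.16. Without HP1ag_KO animal 2 or 3 the one for HP1ag_KO was -1.57 or -0.72. Its parent Rps4x, on the X chromosome, had 6257, 9154 and 8013 in WT, 8199 and 8204 in HP1a_KO, 7901 in HP1ab_KO, and 8899, 7641 and 8981 in HP1ag_KO, with no such order.

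Rpl22l1, which Rpl22 is known to hold down, had 1058, 1701 and 1226 in WT, 1297 and 1384 in HP1a_KO, 1537 in HP1ab_KO, and 1082, 1108 and 1365 in HP1ag_KO. It was the most variable of the expressed protein-coding paralogs and its groups overlapped. Rpl7l1 ran from 1626 (HP1ab_KO) to 2002 (HP1a_KO animal 2), and Rps27l, a p53 target, from 2519 to 3041. Rpl3l, the muscle form of Rpl3, had values of at most 2.84, and Rpl39l, the testis form of Rpl39, of at most 5.47. Rps12l2 had 0.946, which is 1 read, in HP1ag_KO animal 3 and 0 in the other 8 libraries. A count of 0 allows up to 3 reads, for counting error only. Rpl10l was not analysed here.

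**Figure D5:**
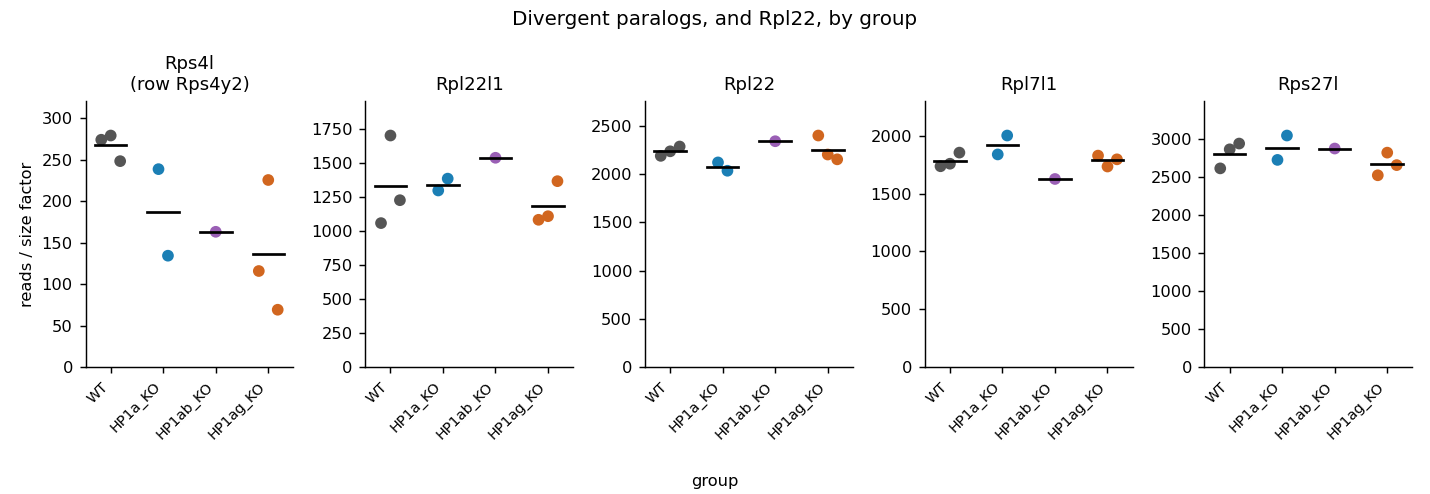
Values (reads divided by the size factor) of Rps4l, Rpl22l1, Rpl22, Rpl7l1 and Rps27l in each library, by group, with group means as lines. For Rps4l all 6 mutant libraries lie below the lowest WT library (248), and in the other 4 panels WT and HP1ag_KO overlap.

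The wider machinery of protein synthesis was described from lists of related genes. Mitochondrial ribosomal proteins (75 of 76 in the table tested) had 16 higher and 59 lower in HP1ag_KO against WT (median -0.08) and 21 higher and 54 lower in HP1a_KO against WT (median -0.08). With WT animal 1 left out these counts were 15 and 60, and 26 and 49. Their medians lay below 0 where those of the cytoplasmic members were above it, in comparisons that share controls. Without WT animal 1, the median of the cytoplasmic members was also below 0 in HP1ag_KO against WT, at -0.04. It stayed above 0 in HP1a_KO against WT, at 0.06. Translation factors (37 tested) had 5 higher and 32 lower in HP1ag_KO against WT (median -0.10), and 23 higher and 14 lower in HP1a_KO against WT (median 0.09). Ribosome biogenesis factors (38 tested) had 16 higher and 22 lower in HP1ag_KO against WT (median -0.05), and 29 higher and 9 lower in HP1a_KO against WT (median 0.16). Without WT animal 1 the biogenesis factors had 22 higher and 16 lower in HP1ag_KO (median 0.02) and again 29 and 9 in HP1a_KO, and the translation factors 4 and 33, and 23 and 14. In HP1ag_KO against HP1a_KO 31 of the 37 translation factors and 34 of the 38 biogenesis factors were lower (medians -0.18 and -0.17). Without HP1a_KO animal 2 there were 23 biogenesis factors lower and 15 higher (median -0.04), and without HP1ag_KO animal 2 there were 26 and 12 (median -0.07). limma and edgeR called none of the genes of these lists in any comparison. In HP1ag_KO against HP1a_KO, where DESeq2 called 3.30% of all genes, it called 1 of the 37 translation factors higher and 7 lower. Of the 38 biogenesis factors it called 1 higher and 1 lower there, and of 21 regulators of ribosomal protein messenger RNA 2 lower. In HP1a_KO against WT DESeq2 called 0.628% of all genes and 1 translation factor, which was lower.

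The genes with the smallest p-values in these lists did not pass limma's threshold. Eif4a2, an RNA helicase of translation initiation, differed by -0.57 ± 0.10 (SE; limma's adjusted p = 0.397) in HP1a_KO against WT, and by -0.42 ± 0.12 (SE; 0.999) in HP1ab_KO. In HP1ag_KO against HP1a_KO it differed by 0.50 ± 0.10 (SE; limma's adjusted p = 0.127). Eif4ebp1, the repressor of cap-dependent translation that mTOR phosphorylates, differed by 0.57 ± 0.14 (SE; limma's adjusted p = 0.397) in HP1a_KO against WT and by -0.72 ± 0.14 (SE; 0.127) in HP1ag_KO against HP1a_KO. Fbl, which methylates ribosomal RNA, differed by -0.41 ± 0.15 (SE; limma's adjusted p = 0.595) in HP1ag_KO against WT. Nat10, which acetylates ribosomal RNA, differed there by 0.36 ± 0.10 (SE; 0.564). Of the hosts of small nucleolar RNAs, whose transcripts also begin with a pyrimidine tract, 7 were tested. Gas5 differed by -0.78 ± 0.17 (SE; limma's adjusted p = 0.999) in HP1ab_KO against WT, and Snhg7 by -0.52 ± 0.18 (SE; 0.457) in HP1a_KO against WT. In HP1ag_KO against WT both were on the other side of 0, Gas5 at 0.17 ± 0.12 (SE; limma's adjusted p = 0.750) and Snhg7 at 0.25 ± 0.16 (SE; 0.739). Against HP1a_KO they stood at 0.45 ± 0.13 (SE; limma's adjusted p = 0.171) and 0.77 ± 0.18 (SE; 0.141).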

How the data were processed

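Per the labels' protocols, ribosomal RNA was removed from total RNA of 9 livers before strand-specific libraries were made. The build mm10 and the tools HTSeq 0.5.4p3, DESeq2 1.0.19, TopHat2 2.0.10, CASAVA 1.8.2 and Bowtie2 2.1.0 are listed in the submitters' processing notes, with no role for each. No source used here gives the strand setting, read length or annotation release, so reads of overlapping genes may not be told apart. The deposited values are a normalised signal: each is a read count over the size factor of its library, since 100% of them came back as whole reads within 0.1 read.

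Genes averaging 10 or more (13845) entered limma 3.58.1 (R 4.3.3) with a mean trend, as log2 of the deposited value plus 1, with all 4 groups in 1 fit and p-values adjusted over all these genes by the Benjamini-Hochberg method. Differences are on that scale. DESeq2 1.42.0 and edgeR 4.0.16 took the whole reads, and the code was tested on simulated data. Gene models, coordinates and transcript sequences came from GENCODE M21 (GRCm38), which matched 22257 of 22701 identifiers, and promoters from RefSeq. In each comparison up to 5 members per direction with the smallest p among those without overlap between groups were named, with the ends of the order per kb, the stalk, Rpl5, Rpl11, Rps6, the paralogs, the widest and narrowest WT spreads and up to 2 genes per list. Members and lists were chosen with earlier results of these data known. Alternatives are given in the closing section.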

Additional observations from a re-analysis of the deposited data

How the results depend on the processing

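The number of members called was 0 in each comparison under every limma and edgeR setting tried; DESeq2 called 1 in HP1ag_KO against HP1a_KO. Counts over all genes moved from 0 under DESeq2 to 99 (HP1ag_KO against WT), 87 (HP1a_KO against WT), 11 (HP1ab_KO against WT) and 457 (HP1ag_KO against HP1a_KO). They moved to 1 with a pseudocount of 5 (HP1a_KO against WT), to 54 with no filter (HP1ab_KO against WT) and to 7 without the trend (HP1ag_KO against HP1a_KO). Leaving out 1 library gave 0 to 2 genes (HP1ag_KO against WT), 0 to 5 (HP1a_KO against WT), 0 to 2 (HP1ab_KO against WT) and 0 to 5 (HP1ag_KO against HP1a_KO); the cause of these moves was not tested. The median of the members moved with the library left out from -0.04 to 0.12, 0.06 to 0.22, -0.02 to 0.16 and -0.16 to -0.06 in these comparisons, turning sign only without WT animal 1. It kept its sign under both other scalings. Summing members with their near copies, matching them by identifier and taking core genes alone, chosen after the data were seen, moved it by less than its spread between replicates. No paired analysis was possible because no animal number is shared between groups; 2 WT and 2 HP1ag_KO animals carry adjacent numbers, which the labels tie to no litter or batch. With 1 to 3 livers per group, and with few reads for the 3 members under the minimum and for Rps3a3 in 5 libraries, precision is limited.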
